A study of Mus musculus with 160 samples.

Results

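Old marrow stromal cells were compared according to whether they listed Phex, and the cells were chosen by their measured Phex value. Of 78 single cells from old mice, 58 had at least 600 named genes at 1 FPKM or more and were kept. FPKM scales fragment numbers to the length of the transcript and to all mapped fragments of that cell, so levels can be set beside each other between genes. Among the kept cells 34 listed Phex at 1 FPKM or more (58.6%, exact Clopper-Pearson 95% interval 44.9% to 71.4%) and 24 did not. The series holds 160 cells, 82 of them from young mice.

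All mice were C57BL/6J, and no allele or treatment is named for either age. The cells came from bone marrow by a sort for the leptin receptor (LepR) and CD140a, the protein of Pdgfra. The gate left out cells with CD45, Ter119 or CD31, which mark blood, red and endothelial cells. Old mice were 24 months old in the sample labels and 2 years in the protocol. Young mice were 9 weeks old in the labels and 10 weeks in the protocol. The labels tie no cell to an animal. Each age was therefore treated as 1 sample, and cells are not replicates. For this reason no test was made between the sides. Intervals cover counting error only, and the depth of each cell is unknown.

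Phex is an X-linked gene for a membrane peptidase of the M13 family, made mainly by osteoblasts and osteocytes. Its loss causes X-linked hypophosphataemia, in which the osteocyte hormone FGF23 is high, phosphate is lost in urine and bone mineralizes poorly. Proteins that control mineral growth, such as osteopontin (Spp1) and matrix Gla protein (Mgp), act in the same matrix. Leptin receptor stromal cells of the marrow secrete factors for blood stem cells and can form bone and fat cells.

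The promoters of Phex and Bmp5 are shown because Phex set the sides and Bmp5, a bone morphogenetic protein, had a high difference between them. It was among the 12 highest when ribosomal, predicted, mitochondrial and small RNA genes were skipped. Both are the 250 bases upstream of the start site in RefSeq, build GRCm38.p6, 5′ to 3′ in the direction of the gene. The Phex stretch lies at chrX:157415287-157415536 on the minus strand and the Bmp5 stretch at chr9:75775115-75775364 on the plus strand. Capitals mark a match to a searched motif.
Phex: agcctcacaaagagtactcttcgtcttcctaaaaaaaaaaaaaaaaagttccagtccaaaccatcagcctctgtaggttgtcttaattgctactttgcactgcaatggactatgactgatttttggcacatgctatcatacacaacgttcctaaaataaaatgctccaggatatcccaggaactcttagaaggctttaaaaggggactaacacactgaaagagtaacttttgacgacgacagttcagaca
Bmp5: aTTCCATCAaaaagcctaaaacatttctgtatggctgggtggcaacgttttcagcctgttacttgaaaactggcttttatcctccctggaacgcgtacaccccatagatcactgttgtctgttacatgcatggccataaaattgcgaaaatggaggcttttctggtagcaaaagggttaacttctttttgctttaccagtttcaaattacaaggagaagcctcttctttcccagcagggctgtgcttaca
Searched on both strands were the RUNX core TGTGGT, the ATF4 composite element TGATGNAA and the TATA box TATAAA. The Phex stretch held none of them. Bmp5 held 1 ATF4 composite match on the opposite strand, 249 to 242 bases upstream. Of 32851 promoter stretches of this length, 14.05% held the RUNX core, 3.45% the ATF4 element and 12.4% the TATA box. These matches are a description of letters and say nothing of binding.

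The Phex values that formed the sides ran from 1.17 through a median of 14.4 to 152 FPKM with Phex. Without Phex they ran from 0 to 0.620 FPKM, with 6 cells listed at 0 and 18 above 0. The 3 cells nearest above the limit had 1.17, 1.94 and 2.39 FPKM, and the 3 nearest below it had 0.620, 0.296 and 0.288. The kept cells with the fewest named genes had 622 and 637, and the left-out cells with the most had 553 and 506.

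Cells with Phex listed more genes. With Phex the number of named genes at 1 FPKM or more ran from 637 through a median of 1350 to 2779, and without Phex from 622 through 1219 to 1877. The ranges overlapped up to 1877 genes, and the highest values were on the side with Phex. When the 58 cells were ordered by gene number, Phex was listed in 9 of the lowest 19 cells (47.4%), 11 of the middle 19 (57.9%) and 14 of the highest 20 (70%). Median summed FPKM was 74982 with Phex and 75798 without, but the highest sums were 7384320 and 230049. The part of gene number in the differences below was not tested. Values within cells of more and of fewer genes are given beside only some of the main ones. Genes shown without them can differ between such cells too. Kitl, for example, was at 1.82 in cells with more genes and -0.37 in cells with fewer, and Ctsz at 2.36 and -0.01. Cells with fewer genes than the median of 1312 were not matched: their medians were 1086 genes with Phex and 886.5 without. In cells with more genes the medians were 1475 and 1448.5.

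**Figure D1:**
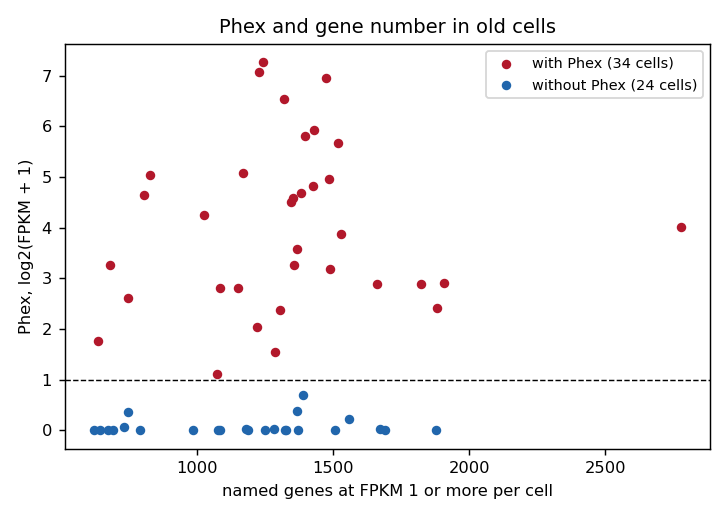
Phex as log2(FPKM + 1) against the number of named genes at 1 FPKM or more, 1 point per kept old cell, with the dashed line at the limit of 1 FPKM. Cells of both sides span most of the range of gene number, and the cell with 2779 genes had Phex.

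A gene was compared when at least 20% of the 58 cells listed it at 1 FPKM or more, and its difference is the mean log2(FPKM + 1) with Phex minus the mean without Phex. This filter pools both sides, so a gene can pass it through the side where it is high. Of 1823 genes compared, 155 were higher with Phex by 1 or more (8.5%) and 38 were lower by 1 or more (2.08%). The median difference was 0.17, and 1121 genes lay above 0. In the 29 cells with and 16 without Phex that had 1000 or more named genes, 149 genes were higher and 156 lower by that size. Of these, 99 and 34 were among the 155 and 38.

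Bone genes as a group were close to the background. Lists for mineralization and phosphate handling, bone matrix, osteoblast transcription factors and osteocytes held 98 genes, of which 95 were in the table, 69 were listed in at least 1 cell and 31 were compared. Of the 31, 2 were higher by 1 or more (Mgp and Atf4) and 0 were lower, against 8.5% and 2.08% of all genes compared. The same shares apply to each bone list below. The median difference of the 31 was 0.15, against 0.17 over all genes compared. This median lay above that of all genes in 2 of 12 alternative settings.

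Mgp, a secreted inhibitor of calcification, was the bone gene that stood out among the abundant ones. It ran from 0 through a median of 479 to 7957 FPKM with Phex and from 0.844 through 142 to 2252 FPKM without. Nearly all cells of both sides listed Mgp, 32 of 34 and 21 of 24, so the sides differed in level and overlapped widely. The Mgp difference was 1.64. It was 0.71 in cells above the median gene number of 1312 and 2.54 in cells below it. With the Phex limit at 10 FPKM it was 0.38.

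Ibsp, bone sialoprotein, which nucleates mineral, was abundant on both sides. It ran from 0.0192 through 314 to 965 FPKM with Phex and from 0.0469 through 213 to 1956 FPKM without, with 31 of 34 and 22 of 24 cells listing it. The Ibsp ranges overlapped, the highest cell had no Phex, and the difference was 0.26. Spp1, osteopontin, was either high or near 0 in a cell. It was listed in 12 of 34 cells with Phex (35.3%, interval 19.7% to 53.5%) and in 8 of 24 without (33.3%, 15.6% to 55.3%), with highest values of 1993 and 1531 FPKM. These shares of Spp1 were alike within their intervals, and the difference in mean was 0.41.

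Among 6 compared genes of mineralization and phosphate handling, 1 was higher (Mgp) and 0 lower, with a median of 0.19. Enpp1, which makes the mineral inhibitor pyrophosphate, was listed in 9 of 34 and 8 of 24 cells (difference -0.23). Fam20c, the kinase of secreted mineral-binding proteins, was listed in 5 of 34 cells with Phex, at up to 127 FPKM, and in 0 of 24 without, a share of 0 that allows up to 12.5% by 3 cells and 14.2% by the exact interval. Fam20c was too rare to be compared. Alpl, the phosphatase that removes pyrophosphate, was listed in 1 of 34 and 3 of 24 cells. The phosphate transporter Slc20a1 was listed in 1 cell of each side.

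Of 19 bone matrix genes compared, 0 were higher and 0 lower by 1 or more, and their median was 0.04. Col1a2, a chain of type I collagen, ran from 0 through 48.2 to 386 FPKM with Phex and from 2.95 through 65.2 to 542 without, listed in 32 of 34 and 24 of 24 cells. Its difference, -0.54, was the lowest of the list, and with the Phex limit at 10 FPKM it was 0.50. Col1a1, the partner chain, was listed in 8 of 34 and 5 of 24 cells (difference -0.09). Tnc, tenascin C, had the highest difference of the list at 0.85, with medians of 28.3 and 5.80 FPKM. The collagen chaperone Serpinh1 was listed in 23 of 34 and 11 of 24 cells (0.64). Loxl2, a collagen crosslinking enzyme, was listed in 17 of 34 and 6 of 24 (0.44). Sparc, osteonectin, had medians of 48.2 and 31.3 FPKM and a difference of 0.04, and its sign depended on gene number: 0.64 in cells with more genes and -0.96 in cells with fewer. The small proteoglycan Bgn (-0.16) and Omd (-0.01) were listed in most cells of both sides.

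Among osteoblast transcription factors 4 were compared, with 1 higher (Atf4), 0 lower and a median of 0.19. Atf4, which drives osteoblast genes and the response to amino acid shortage, ran from 0 through 1.80 to 170 FPKM with Phex and from 0 through 0 to 23.1 FPKM without. It was listed in 17 of 34 cells (50%, interval 32.4% to 67.6%) against 3 of 24 (12.5%, 2.66% to 32.4%). The Atf4 difference was 1.68, at 1.41 in cells with more genes and 1.90 in cells with fewer, and 0.58 with the Phex limit at 10 FPKM. Runx2, the main regulator of the osteoblast lineage, was listed in 7 of 34 cells, at up to 26.9 FPKM, and in 1 of 24, at 1.08 FPKM. It was too rare to be compared, its difference was 0.48, and at a Phex limit of 10 FPKM it was -0.07. Dlx5 went the other way, with 6 of 34 and 7 of 24 cells (-0.75). Sp7, the osteoblast factor osterix, was listed in 2 of 34 and 1 of 24 cells.

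Some marker genes of late osteoblasts and osteocytes were at or near 0 in nearly all cells of both sides. The osteoblast marker Ibsp, given above, was abundant on both sides. Bglap, osteocalcin, was listed in 0 of 34 cells with Phex, which allows up to 8.82% by 3 cells and 10.3% by the exact interval, and in 1 of 24 without, at 489 FPKM. The osteocyte genes Dmp1, Mepe, Sost and Fgf23 were listed at 0 in all 58 cells. Of the 2 osteocyte list genes compared, Tnfsf11 (RANKL, the osteoclast differentiation factor) was listed in 11 of 34 and 4 of 24 cells (0.71), and the gap junction gene Gja1 in 33 of 34 and 23 of 24 (0.15, medians of 217 and 175 FPKM).

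**Figure D2:**
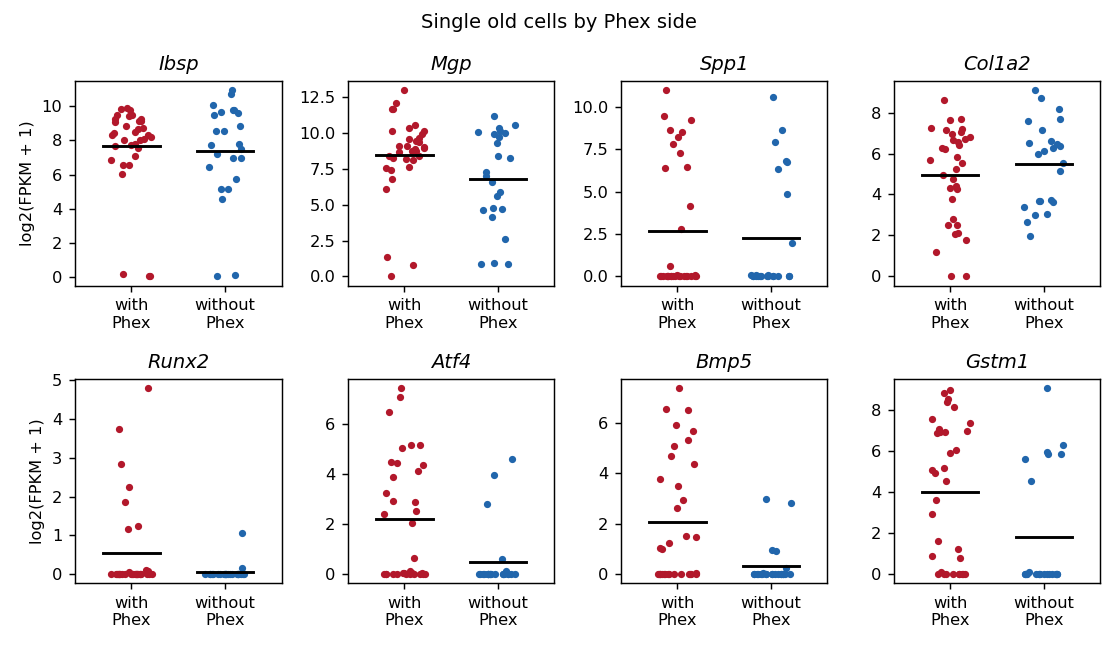
Values of 8 genes as log2(FPKM + 1) in 34 old cells with Phex (red) and 24 without (blue), 1 point per cell, with horizontal bars at the mean of a side and points spread sideways for sight only. Ibsp, Spp1 and Col1a2 overlap along their range, while Atf4 and Bmp5 are near 0 in most cells without Phex.

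Markers of the sort were listed on both sides. Lepr ran from 0.0140 through 75.1 to 264 FPKM with Phex and from 0.0164 through 50.2 to 335 FPKM without, and was listed in 33 of 34 and 22 of 24 cells (0.51). Pdgfra was listed in 19 of 34 and 9 of 24 (0.25, and -0.34 with the Phex limit at 10 FPKM). Cxcl12, the chemokine that holds blood stem cells, had medians of 809 and 889 FPKM (0.57), and Adipoq, adiponectin, 208 and 219 FPKM (-0.37, and 0.30 with the Phex limit at 10 FPKM). Of 18 niche factors compared, 2 were higher (against 8.5% of all genes) and 0 lower (against 2.08%), with a median of 0.35. Gas6, a ligand of TAM receptors, was listed in 27 of 34 and 14 of 24 cells (1.37), and the adhesion molecule Vcam1 in 28 of 34 and 19 of 24 (1.01). Kitl, stem cell factor, was at 0.59, and Csf1, the macrophage growth factor, at 0.96. Among 7 adipogenic genes 0 were past the size in either direction, with a median of 0.50.

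Marker lists of blood, endothelial and cartilage cells were nearly empty. Of 20 hematopoietic markers measured, 14 were at 0 in all kept cells, Ptprc was listed in 0 cells, and their summed FPKM ran from 0 to 56.6 with Phex and from 0 to 182 without. Of 14 endothelial markers 11 were at 0, Pecam1 was listed in 0 cells, and the sums ran to 11.4 with Phex and 28.7 without. Of 15 chondrocyte markers 12 were at 0, with sums up to 18.1 and 41.3, and 7 erythroid markers summed to at most 6.55 with and 73.05 without Phex. No gene of these 4 lists was compared. At least 3 fibroblast markers were listed in 14 of 34 cells with and 11 of 24 without Phex. For the hematopoietic, endothelial, chondrocyte and erythroid lists the highest sums were on the side without Phex. Fibroblast markers were listed more widely, with median sums of 126 FPKM with and 58.5 without Phex. Pericyte and smooth muscle markers reached sums of 292 FPKM with and 175 without Phex, and their compared gene, Mylk (myosin light chain kinase), was listed in 27 of 34 and 13 of 24 cells (1.06). Sums of Schwann cell markers reached 335 and 91.4 FPKM and those of proliferation genes 277 and 55.3, in the same order. Their part in the differences was not tested.

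Complement and acute phase proteins, secreted in defence and inflammation, were then described as a list. Of its 25 genes 21 were in the table and 12 were compared. Of the 12, 7 were higher with Phex by 1 or more, against 8.5% of all genes, and 0 were lower, with a median of 1.01. The 7 lay between 1.01 and 1.25, just past the size. Leaving out a single cell, 1 without Phex, took the count from 7 to 3, and it was 2 in cells with 1000 or more named genes and 1 with each cell rescaled to the same summed FPKM. The list's median was above that of all genes in 12 of 12 alternative settings, at 0.30 to 1.41.

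C3, the central complement component, ran from 0 through 13.5 to 338 FPKM with Phex and from 0 through 3.22 to 97.9 FPKM without. It was listed in 28 of 34 and 16 of 24 cells, and the difference was 1.25, at 0.22 in cells with more genes and 2.11 in cells with fewer. C1s, a protease of the classical pathway, had medians of 21.3 and 5.50 FPKM and a difference of 1.22, which was -0.01 in cells with more genes, 2.02 in those with fewer and -0.33 with the Phex limit at 10 FPKM. Hp, haptoglobin, which binds free haemoglobin, was at 1.02, at -0.46 and 1.86 in the same order. For these 3 genes the difference was thus seen mainly in cells with fewer genes, where the sides also differed in gene number.

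Other higher members were above 0 both in cells with more and in cells with fewer genes. Lbp, which binds bacterial lipopolysaccharide, was listed in 13 of 34 and 3 of 24 cells (1.09). The cytokine receptor chains Lifr (1.04, at 0.17 with more genes and 1.73 with fewer) and Il6st (1.01, at 1.29 and 0.44) were past the size too. The compared genes that follow were not. Serping1, the C1 inhibitor, was listed in all cells with medians of 156 and 158 FPKM and a difference of -0.07, and C1ra, the partner of C1s, was at -0.39. Cp, ceruloplasmin, was at 0.43, Cfb at -0.27 and Socs3 at -0.38.

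**Figure D3:**
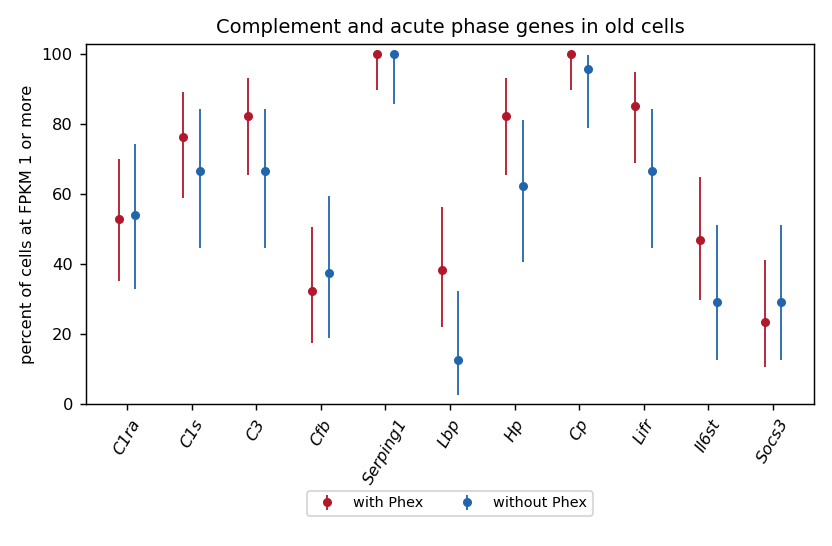
Percent of old cells at 1 FPKM or more for 11 compared complement and acute phase genes, with Phex (red, 34 cells) and without (blue, 24 cells), bars showing exact 95% intervals. The intervals of the sides overlap for each of the 11 genes, Lbp with 38.2% against 12.5% included.

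The signalling list of TGF-beta and BMP genes had 38 members, 13 of them compared, with 4 higher (against 8.5% of all genes), 0 lower (against 2.08%) and a median of 0.67 (against 0.17). With each cell rescaled to the same summed FPKM 1 was higher. Bmp5 ran from 0 through 1.02 to 167 FPKM with Phex and from 0 through 0 to 6.90 FPKM without. It was listed in 17 of 34 cells (50%, interval 32.4% to 67.6%) and 2 of 24 (8.33%, 1.03% to 27%), so most cells without Phex lay at or near 0, as did many with Phex, and the high values were on the side with Phex. The Bmp5 difference was 1.75, at 1.55 in cells with more genes and 2.02 with fewer. Within the cells with Phex the order did not follow the Phex level: the mean log2(FPKM + 1) of Bmp5 was 1.40 in the cells above the median Phex and 2.77 below it, against 0.33 without Phex. With the Phex limit at 10 FPKM the difference was -0.08.

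Receptors and antagonists made up the rest of the 4. The type 2 receptor genes Bmpr2, listed in 14 of 34 and 3 of 24 cells, and Acvr2a, in 11 of 34 and 1 of 24, were at 1.12 and 1.05. A single cell held 90.2% of the summed Bmpr2 FPKM. Chrdl1, a BMP antagonist, had medians of 20.5 and 3.26 FPKM (1.11). Grem1, another antagonist, was at 0.79 and the coreceptor Tgfbr3 at 0.76. Targets of the pathway did not share the sign: Id3 was at -0.86 and Id4 at -0.16. The ligand Bmp4 was at -0.36.

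**Figure D4:**
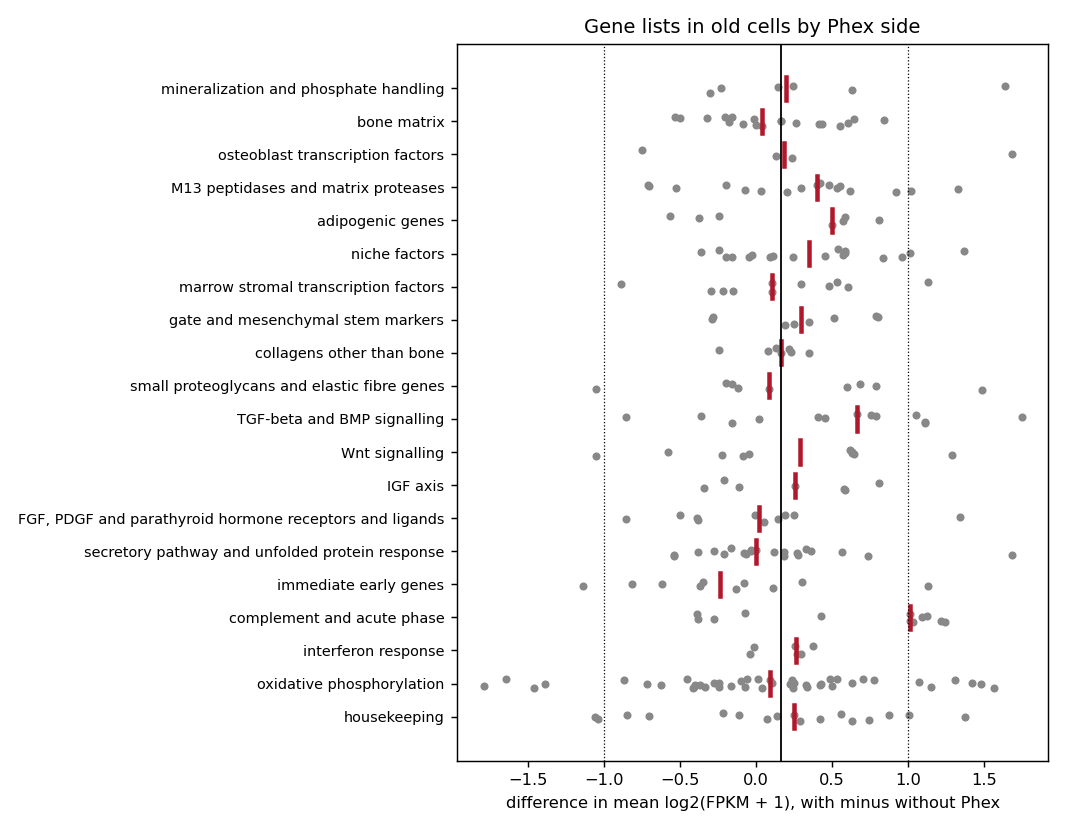
Difference in mean log2(FPKM + 1), with minus without Phex, for gene lists with at least 4 compared genes: grey points are genes, red bars list medians, the solid line the median of all 1823 genes and dotted lines the size of 1 in either direction. The complement list has its median at 1.01, and the bone matrix list at 0.04 has no gene past a dotted line. Left out of the figure are the X-linked list and the lists picked earlier as higher in old or young cells.

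Further lists had small numbers of genes past the size. Over all genes 8.5% were higher and 2.08% lower, and some of these lists lay above those shares. Among 17 M13 peptidases and matrix proteases 2 were higher and 0 lower, with a median of 0.40. Mme and Ece1, relatives of Phex in the M13 family, were listed in 20 of 34 and 12 of 24 cells (0.62) and in 13 of 34 and 4 of 24 (0.48). The lysosomal protease Ctsz was listed in 14 of 34 and 3 of 24 cells (1.33). Of 10 FGF, PDGF and parathyroid hormone receptors and ligands 1 was higher, Fgfr2, with medians of 8.50 and 0.758 FPKM (1.34), and the list's median was 0.02. Fgfr1 was at 0.14, and Pth1r, the parathyroid hormone receptor, was listed in 5 of 34 and 3 of 24 cells. Of 10 Wnt genes 1 was higher, Ctnnb1 (beta-catenin, 17 of 34 and 3 of 24 cells, 1.29), and 1 lower, the secreted antagonist Sfrp2 (5 of 34 and 7 of 24, -1.05). With the Phex limit at 10 FPKM Ctnnb1 was at 0.11 and Sfrp2 at -0.56. Fbn1, fibrillin, was listed in 32 of 34 and 17 of 24 cells (1.49), while Efemp2, of the same list of elastic fibre genes, was at -1.05. Of 11 marrow stromal transcription factors 1 was higher (Klf6) and 0 lower, and Foxc1, needed for the stem cell niche, was listed in 24 of 34 and 21 of 24 cells (-0.89, and 0.28 with the Phex limit at 10 FPKM). Lists of collagens outside bone (7 compared, median 0.17), the IGF axis (7, median 0.26) and interferon response (6, median 0.26) had 0 genes past the size. Among 17 housekeeping genes 2 were higher and 2 lower, with a median of 0.25. Actb was listed in all cells with medians of 399 and 488 FPKM. Of 10 genes picked earlier from these cells as higher in old mice 2 were higher with Phex, and of 9 picked as higher in young mice 3 were.

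The 12 highest differences, with predicted, ribosomal, mitochondrial and small RNA genes skipped, held no bone gene other than Atf4 and Mgp. Gstm1, a glutathione transferase, ran from 0 through 25.7 to 501 FPKM with Phex and from 0 through 0 to 533 FPKM without, listed in 22 of 34 and 7 of 24 cells. The Gstm1 difference of 2.18 was past the size in 12 of 12 alternative settings, as was that of the metallothionein Mt1 (1.92). Settings that change only the filter leave the difference of a gene as it was, so at most 10 of the 12 could change it. Taking the largest of rows sharing a name can change only genes with several rows. It left all 155 and 38 genes past the size. Gstm1 has close paralogs, and how fragments shared among them were divided is not stated, so its level is uncertain. Mt1 was at 0.07 in cells with more genes and 3.48 in cells with fewer. Fhl2, a LIM domain cofactor, was at 1.86 and Dhrs3, a retinaldehyde reductase, at 1.80. The joined row of the myosin light chains Myl6 and Myl6b was at 2.55, with nearly all its summed FPKM in a single cell.

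The lowest differences were led by Ndufb5, a subunit of respiratory complex I, listed in 4 of 34 and 9 of 24 cells (-1.79). Smarca2, a chromatin remodelling ATPase, was listed in 4 of 34 (11.8%, interval 3.30% to 27.5%) and 10 of 24 (41.7%, 22.1% to 63.4%), with a difference of -1.74. The sign of Smarca2 was the same in all 12 settings, of which at most 10 could change it. Serpina12, the adipokine vaspin, reached 28.4 FPKM with Phex and 403 without, in 8 of 34 and 13 of 24 cells (-1.46). Gpx8, a peroxidase of the endoplasmic reticulum, had medians of 28.8 and 87.1 FPKM (-1.28). Of the 155 higher genes 139 had that sign both in cells with more and in cells with fewer genes, as had 35 of the 38 lower ones. These genes were chosen over the same cells, which favours such agreement, so the counts support nothing. With the filter settings and the pseudocount of 10 set aside, 14 of the 155 and 1 of the 38 (Smarca2) stayed past the size in every alternative. With the Phex limit at 10 FPKM 72 and 10 did, and with Phex above 0 69 and 15.

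Young cells, which did not enter the choice, were split by the same limits into 14 with and 53 without Phex of 67 kept. Xist, the X inactivation RNA, was listed in 29 of 34 and 20 of 24 old cells and in 0 young cells, and the labels give no sex, so age and a possible difference in sex cannot be told apart here. Of 1389 genes compared at both ages, 120 were higher with Phex by 1 or more in young cells (8.64%) and 48 lower (3.46%), and 723 (52.1%) had the same sign at both ages. Of 124 genes higher in old cells and compared in young ones, 74 had the same sign (59.7%) and 15 were again past the size (12.1%), while 6 were past it the opposite way. Over all 1389 genes, 760 (54.7%) lay above 0 in young cells. Of 34 lower genes 15 had the same sign, 3 were again past the size and 7 were past it the opposite way. The shares again past the size, 12.1% and 8.82%, stand against 8.64% and 3.46% of all genes compared at both ages.

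Bmp5 was among the 15, listed in 8 of 14 and 16 of 53 young cells with a difference of 1.51. So were Gstm1 (1.80, 8 of 14 and 27 of 53), Hp (1.21, 14 of 14 and 44 of 53), Klf6, an early response transcription factor (1.06 in young and 1.14 in old cells), and the hypoxia factor Epas1 (1.30 in young and 1.31 in old). Gpx8 was again lower (-1.05). Mgp went the other way in young cells at -0.99, listed in 10 of 14 and 45 of 53, and Ibsp was at -1.34. Atf4 was at 0.26 and C3 at 0.56. Of the 7 complement genes higher in old cells, Hp alone was past the size in young ones.

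**Figure D5:**
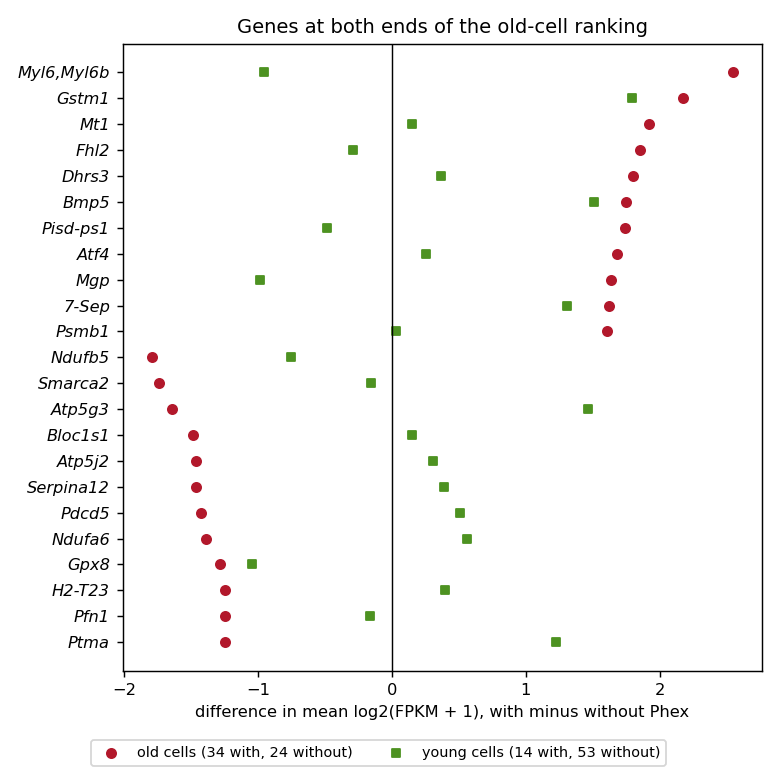
Difference in mean log2(FPKM + 1), with minus without Phex, in old cells (red circles) and young cells (green squares) for 11 of the 12 highest and the 12 lowest genes in old cells, with predicted and ribosomal genes skipped. Gstm1 and Bmp5 lie to the right at both ages, while Mgp lies on opposite sides of 0.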

How the data were processed

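Single cells were captured on a microfluidic chip (Fluidigm C1) and amplified with SMARTer chemistry, per the labels' protocols, and wells without exactly 1 intact cell were set aside by microscopy, so no doublet caller was run. The authors deposited FPKM per gene and cell. Per the submitters' processing notes Cufflinks 2.1.1 and the build mm9 were used. The aligner, the filters and the depth: not given in the sources used here. No count model was used, and a listed 0 may come from an estimate that failed.

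Rows sharing a name were summed (23448 named rows, 22866 names), 7751 unnamed rows were left out, 319 names join several symbols and 24 had been turned into dates. Old cells with 600 named genes at 1 FPKM were split at a Phex FPKM of 1. Means are of log2(FPKM + 1), a pseudocount of 1 that understates the change of low genes, and a gene needed 1 FPKM in 20% of kept cells. The size used is 1 on this scale. Named genes were the 12 highest and 12 lowest with the same sign in mean and share (predicted, ribosomal, mitochondrial and small RNA genes skipped), bone genes listed in 10% of cells, 6 well-known bone genes, 5 gate and niche genes and the extremes of each other list. Other list members in the text were picked with their values in view. The split and the 34 gene lists were chosen with earlier results of these data known. The lists of genes higher in old or young cells came from these same cells and support nothing. Alternatives changed the pseudocount, filter, cells, Phex limit and scaling, and left out each cell. Only the calculation of differences and of the exact interval was tested. For the differences, the kept old cells were shuffled between sides and some genes were changed by a known factor. That checks arithmetic only. Python 3.11.15, numpy 2.4.6, pandas 2.3.3 and scipy 1.17.1 were used. RefSeq promoters are from GRCm38.p6, and no coordinates of mm9 are given. The values of some genes are not reported here.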

Additional observations from a re-analysis of the deposited data

Results flagged for a closer look

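Old cells with fewer than 600 named genes entered no comparison above, yet 8 of these 20 cells listed Phex at 1 FPKM or more (40%, exact 95% interval 19.1% to 63.9%). Rows without a gene name, which were left out as well, held a median of 43.3% of the summed FPKM in old cells with Phex and 46.5% in those without.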

How the results depend on the processing

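Over 12 alternative settings, 106 of 1332 differences of the 111 named genes changed sign, 28 of them with Phex above 0 and 26 with Phex at 10 FPKM. The settings that change only the filter leave each difference as it was, so they could add 0 changes. Of the 106, 9 had been past the size in the main comparison and are given below. Another 84 values fell below the size without a change of sign, and 52 passed it with the sign kept. A further 6 of the 106 passed it with the opposite sign, all with Phex above 0. They were Anxa2 (1.20), Lox (1.19), Crtap (1.12), Irf1 (1.10), Ppib (1.07) and Sparc (-1.91). With a pseudocount of 0.1, 389 genes were higher and 128 lower, 7 and 1 of them bone genes, and with a pseudocount of 10, 6 were higher and 1 lower, with 1 bone gene, 0 complement and 0 TGF-beta and BMP genes higher. Without a filter the bone median was 0.051, and with genes listed in 50% of cells 51 were higher and 17 lower, with 1 bone gene and 1 TGF-beta and BMP gene higher. With all old cells (42 with Phex, 36 without) 8 genes were lower, and 1 bone, 3 complement and 2 TGF-beta and BMP genes higher. With 1000 named genes per cell 156 genes were lower, the bone median was 0.011, and 2 bone genes were lower and 2 complement genes higher. With Phex above 0 (52 cells with, 6 without) 311 genes were higher and 197 lower, the bone median was 0.32, 12 bone genes were higher and 2 lower, and 3 complement and 2 TGF-beta and BMP genes were higher. In this setting Ndufb5 was at 0.18, Atp5g3 at 0.94, Serpina12 at 0.65, Pdcd5 at 0.37, Sfrp2 at 1.05 and Ppia at 1.46, all of the opposite sign to the main comparison. With Phex at 10 FPKM 4 bone and 3 complement genes were higher, and Bmp5 (-0.075), Gpx8 (0.32) and Ppia (0.056) changed sign, as did C1s (-0.33), which is shown above but is not among the 111 genes. So did Ogn (-0.77), Foxc1 (0.28), Sepp1 (0.50) and Pdgfra (-0.34), which had not been past the size. Rescaled to the same summed FPKM, the bone median was 0.016 and 1 complement and 1 TGF-beta and BMP gene were higher. Without cells of extreme summed FPKM (31 with Phex and 23 without kept) 167 genes were higher and 30 lower. Of these, 133 and 25 were shared with the main comparison, and 5 complement and 3 TGF-beta and BMP genes were higher. Averaged within cells of more and of fewer genes, 59 genes were lower, the bone median was 0.053 and 3 complement genes were higher. Leaving out each cell gave 131 to 171 genes higher, 27 to 49 lower, a bone median of 0.09 to 0.20, 2 to 3 bone genes, 3 to 7 complement genes and 3 to 5 TGF-beta and BMP genes higher. The cause of these changes was not tested. No paired analysis was possible because the result comes from no test and cell numbers are only names. FPKM give no depth, so a gene listed at 0 is not shown to be absent.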

Other observations

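Nuclear genes of oxidative phosphorylation, the system that makes ATP in mitochondria, were spread widely between old cells with and without Phex. Of 45 compared, 6 were higher with Phex by 1 or more (against 8.5% of all genes) and 4 lower (against 2.08%), with a median of 0.09. Atp5g1, a gene for the c subunit of ATP synthase, was listed in 15 of 34 and 4 of 24 cells (1.56), while Atp5g3, which encodes the same subunit, was listed in 12 of 34 and 12 of 24 (-1.64). Of 75 ribosomal protein genes compared, a list added after the values were seen, 4 were higher and 10 lower, against the same 8.5% and 2.08% of all genes, with a median of -0.09. These genes have many near-identical pseudogenes, so their levels are uncertain. That median was 0.24 with all old cells kept, 0.54 with Phex above 0 and 0.19 with the Phex limit at 10 FPKM.

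Immediate early genes, which cells switch on within minutes of a stimulus or of handling, had a median of -0.24 over 10 compared genes. Of the 10, 1 was higher (Klf6, 1.14) and 1 lower, against 8.5% and 2.08% of all genes. The lower gene was Fos, a subunit of AP-1, with medians of 54.5 and 140 FPKM (-1.14). With the Phex limit at 10 FPKM Fos was at -0.09. Its partner Jun was at -0.82 and Junb at -0.62. In young cells Fos was at 1.41. Among 21 genes of the secretory pathway and unfolded protein response 1 was higher, Atf4, and 0 lower, against the same 8.5% and 2.08%. The median of this list was -0.003. Hspa5, the main chaperone of the endoplasmic reticulum, was listed in 30 of 34 and 22 of 24 cells with medians of 53.5 and 28.4 FPKM and a difference of -0.003.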
